A study of Mus musculus with 4 samples.

Results

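The expression of 9 genes that encode calcium-regulated enzymes of synaptic plasticity was examined in primary cultures of mouse cortex in which CTCF had been knocked down. They were the CaMKII subunit genes Camk2a, Camk2b, Camk2d and Camk2g, the nuclear kinase gene Camk4, the protein kinase C (PKC) genes Prkca, Prkcb and Prkce, and Ppp3ca, which encodes the alpha catalytic subunit of calcineurin. The 9 were chosen by name from the 37437 Ensembl genes in the files, and all 9 passed the filter on low values. The knockdown libraries, shCTCF, came from cultures given an adeno-associated virus that knocked down CTCF, a DNA-binding zinc finger protein that organizes chromatin loops together with cohesin. The control libraries, shLAC, came from cultures given such a virus against lacZ, which mouse cells do not have. Each group held 2 libraries. The labels give no strain, age, sex, viral promoter, dose or time after infection, and no share of infected cells. They do not say whether the replicates were separate cultures, so a p-value here measures no more than the spread of the libraries, possibly a technical one.

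CaMKII is a multi-subunit kinase that calcium-bound calmodulin switches on and that stays active after phosphorylating itself, a step needed for long-term potentiation at excitatory synapses of the forebrain. Conventional PKC enzymes respond to diacylglycerol and calcium, the class of PKC epsilon to diacylglycerol alone, and atypical ones to neither. Calcineurin is a calcium- and calmodulin-dependent phosphatase that acts against these kinases and is needed for long-term depression. CaMKIV, the product of Camk4, sits in the nucleus and phosphorylates the transcription factor CREB.

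Values are TPM, each gene's length-corrected share of all transcripts, which can be compared between genes. Because TPM sums to a fixed total, a library with much RNA of 1 kind shows all other genes lower. In shLAC replicate 2, predicted loci named Gm and a number held 27.98% of TPM, against 9.21% to 11.7% in the other 3 libraries. Values were therefore divided by median-ratio factors of 1.10 and 1.05 for shCTCF and 1.05 and 0.832 for shLAC, and are called scaled TPM. As deposited, the median log2 fold change of all coding genes fitted was 0.17. After scaling it was 0.00, which the scaling itself brings about, since the factors come from these same genes. Ctcf was at 3.25 and 3.40 scaled TPM in shCTCF, against 8.11 and 8.80 in shLAC, and its fall by 1.13 on the log2 scale passed the test (SE 0.0668, limma adjusted p = 0.00209, n = 2 per group). TPM keeps no depth, so no counting interval can be given.

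None of the 9 enzyme genes passed an adjusted p of 0.05 in limma. Across the 11139 protein-coding genes fitted together, 315 rose (2.83%) and 410 fell (3.68%), so 6.51% passed in either direction. Of the 9 also 0 passed as deposited, where 106 genes rose and 50 fell (1.4%), and with all biotypes fitted after scaling, where 1.05% passed. Without shLAC replicate 2, 1 of the 9 passed, Camk2a, where 9.9% of all genes did. The number of genes that rose was 525 and 494 without shLAC replicates 1 and 2 and 132 and 77 without shCTCF replicates 1 and 2, and the number that fell was 623, 609, 234 and 144 in that order. At an unadjusted p below 0.05, 3 of the 9 were past the threshold (Camk2a, Camk4 and Prkcb), against 23.9% of all genes fitted. Of the 9, 8 had a positive log2 fold change after scaling, and Camk2d was negative; as deposited all 9 were positive, Camk2d included. The median change of the 9 was 0.08 after scaling, against 0.00 for all genes fitted, a median that the scaling itself sets. Both shCTCF values lay above both shLAC values for Camk2a, Camk2b, Camk2g, Camk4 and Prkcb, 5 of 9, where 27.6% of all genes did so. Both lay below for Camk2d, 1 of 9, where 27.2% did so. Prkca, Prkce and Ppp3ca had groups that overlapped.

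**Figure D1:**
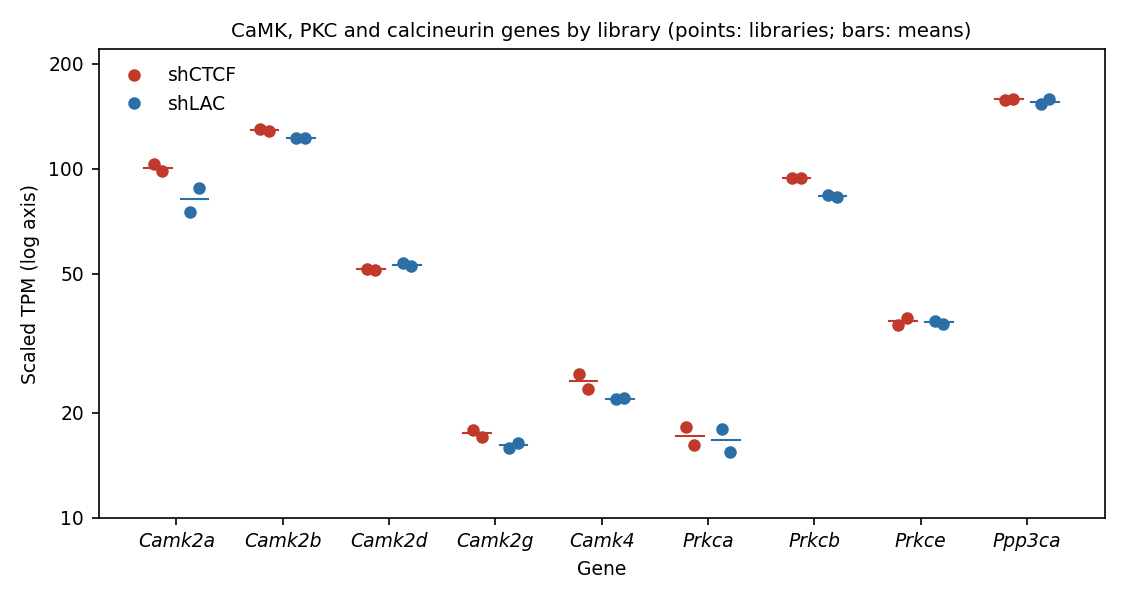
Scaled TPM (log axis) of the 9 genes in each library, with shCTCF libraries in red and shLAC libraries in blue; points are the 2 libraries of a group and short bars their means. Camk2a and Prkcb show the widest gaps between groups, and Ppp3ca, at 153.5 to 158.7 scaled TPM, shows almost none.

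Among the CaMKII genes the alpha subunit gene differed most. Camk2a (ENSMUSG00000024617, chromosome 18, 60925618 to 60988152, + strand, GRCm38) encodes the subunit that excitatory forebrain neurons make in large amounts. It was at 102.9 and 98.5 scaled TPM in the shCTCF libraries, against 75.0 and 88.3 in the shLAC libraries. Both knockdown values were above both control values, and after scaling the 2 control values stood farther apart than the 2 knockdown values. As deposited the values were 112.9 and 103.3 TPM in shCTCF and 78.6 and 73.4 TPM in shLAC, and the 2 knockdown values stood farther apart. Which group had the wider spread thus depended on scaling. The ratio of Camk2a to Camk2b does not depend on it. That ratio was also farther apart in shLAC, at 0.612 and 0.721, than in shCTCF, at 0.790 and 0.766. The knockdown mean was 123% of the control mean, and the log2 fold change was 0.30 (SE 0.0785, 95% interval 0.12 to 0.49, limma adjusted p = 0.0719). Without shLAC replicate 2 the value was 0.42 and passed (limma adjusted p = 2.42e-04), as did 9.9% of all genes fitted. Without shLAC replicate 1 it was 0.19 and did not pass (limma adjusted p = 0.0624), where 10.3% did. As deposited it was 0.50, beside the shift of 0.17 for all genes, and it did not pass (limma adjusted p = 0.444). After scaling, the size of the Camk2a change thus differed by more than 1.5 times with the choice of control library.

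Camk2b (ENSMUSG00000057897, chromosome 11, 5969644 to 6066362, - strand), whose beta subunit binds actin filaments in spines, had the highest level of the 4 CaMKII genes in each library. It was at 130.3 and 128.7 scaled TPM in shCTCF and at 122.5 scaled TPM in both shLAC libraries. The groups did not overlap, but the log2 fold change of 0.08 did not pass (SE 0.0442, 95% interval -0.03 to 0.18, limma adjusted p = 0.327). Camk2d (ENSMUSG00000053819, chromosome 3, 126596302 to 126846326, + strand) encodes the delta subunit, the main CaMKII subunit of heart muscle. It was at 51.6 and 51.3 scaled TPM in shCTCF, against 53.6 and 52.6 in shLAC, a log2 fold change of -0.04 after scaling and 0.15 as deposited (95% interval after scaling -0.15 to 0.06, limma adjusted p = 0.583). Camk2g (ENSMUSG00000021820, chromosome 14, 20734875 to 20794088, - strand), for the gamma subunit, was the lowest of the CaMKII genes at 17.8 and 17.1 scaled TPM in shCTCF and 15.9 and 16.4 in shLAC. Its log2 fold change was 0.11 (95% interval -0.02 to 0.23, limma adjusted p = 0.269). The 95% intervals of these 3 genes together span -0.15 to 0.23 log2 units. The files hold 1 value per gene, so splice forms of these genes cannot be told apart.

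The mix of CaMKII subunit transcripts can be read within a library, where it does not depend on scaling. Camk2a made up 34.0% and 33.3% of summed CaMKII TPM in the shCTCF libraries, against 28.1% and 31.6% in the shLAC libraries. The mean share was 33.7% ± 0.484 in shCTCF and 29.8% ± 2.44 in shLAC (SD, n = 2), a difference of 3.85 percentage points. Camk2d made up 17.1% and 17.4% in shCTCF, against 20.1% and 18.8% in shLAC, and Camk2b 43.0% and 43.5% in shCTCF, against 45.9% and 43.8% in shLAC. Shares of 1 sum are tied, so a higher share of 1 gene lowers the others. Camk2g kept 5.78% to 5.94% in all 4 libraries, with groups that overlapped. The exact 2-sided permutation p for Camk2a, Camk2b and Camk2d was 0.333, the smallest that 2 against 2 libraries allow, so no share could pass. The ratio of Camk2a to Camk2b was 0.790 and 0.766 in shCTCF, against 0.612 and 0.721 in shLAC. The summed level of the 4 genes was 302.7 and 295.6 scaled TPM in shCTCF and 267.0 and 279.8 in shLAC.

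**Figure D2:**
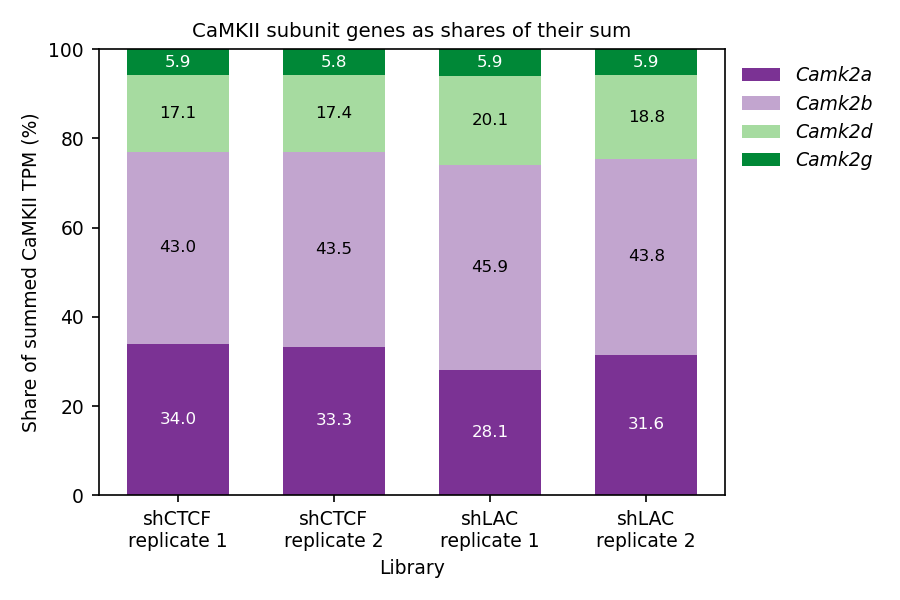
Share (%) of the summed TPM of Camk2a, Camk2b, Camk2d and Camk2g held by each gene, 1 bar per library, shCTCF at left and shLAC at right. The Camk2a share is 34.0% and 33.3% in shCTCF and 28.1% and 31.6% in shLAC, while the Camk2g share stays between 5.78% and 5.94%.

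Camk4 (ENSMUSG00000038128, chromosome 18, 32934931 to 33191228, + strand), the gene of the nuclear kinase CaMKIV, was at 25.9 and 23.4 scaled TPM in shCTCF, against 21.8 and 22.0 in shLAC. The groups did not overlap, with the lower knockdown value close to the controls. The log2 fold change of 0.16 did not pass (SE 0.0604, 95% interval 0.02 to 0.30, limma adjusted p = 0.172). Without shCTCF replicate 1 it was 0.09 (limma adjusted p = 0.548).

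Of the PKC genes, Prkcb differed most, and the groups of Prkca and Prkce overlapped. Prkcb (ENSMUSG00000052889, chromosome 7, 122288751 to 122634402, + strand) encodes the conventional isoforms beta I and beta II, which its single value adds together. It was at 93.9 and 94.1 scaled TPM in shCTCF, against 84.3 and 83.2 in shLAC. The groups were apart and each pair was close, but the log2 fold change of 0.17 did not pass (SE 0.0440, 95% interval 0.06 to 0.27, limma adjusted p = 0.0784). Prkca (ENSMUSG00000050965, chromosome 11, 107933387 to 108343928, - strand), for conventional PKC alpha, was at 18.2 and 16.1 scaled TPM in shCTCF and 18.0 and 15.4 in shLAC, so the groups overlapped. Its log2 fold change was 0.04 (95% interval -0.17 to 0.24, limma adjusted p = 0.824), and without shLAC replicate 2 or shCTCF replicate 1 it was negative. Prkce (ENSMUSG00000045038, chromosome 17, 86167785 to 86657919, + strand) encodes the isoform epsilon, which needs diacylglycerol but not calcium. It was at 35.7 and 37.4 scaled TPM in shCTCF and 36.6 and 36.0 in shLAC, a log2 fold change of 0.01 (95% interval -0.11 to 0.12, limma adjusted p = 0.937). Of the summed TPM of these 3 genes, Prkcb held 63.6% and 63.8% in shCTCF and 60.7% and 61.8% in shLAC, and Prkce held 24.2% and 25.3% in shCTCF and 26.4% and 26.7% in shLAC. The exact permutation p of both shares was again 0.333, the smallest possible.

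Ppp3ca (ENSMUSG00000028161, chromosome 3, 136670124 to 136937727, + strand), the calcineurin catalytic gene that brain expresses most, had the highest level of the 9 genes in every library. It was at 157.6 and 158.7 scaled TPM in shCTCF and 153.5 and 158.0 in shLAC, and the groups overlapped. The log2 fold change was 0.02 (SE 0.0458, 95% interval -0.09 to 0.13, limma adjusted p = 0.809). Ppp3cc, the gamma catalytic gene and no member of the 9, rose, at 8.28 and 8.23 scaled TPM in shCTCF, against 6.69 and 6.72 in shLAC (log2 fold change 0.26, SE 0.0555, limma adjusted p = 0.0417). That call was lost without each of the 4 libraries in turn (limma adjusted p from 0.0522 to 0.174), with a log2 fold change of 0.26 to 0.27. Ppp3ca held 66.6% and 67.4% of the catalytic subunit TPM in shCTCF and 67.2% and 68.5% in shLAC. Ppp3cc held 3.50% in both shCTCF libraries and 2.93% and 2.92% in the shLAC libraries.

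**Figure D3:**
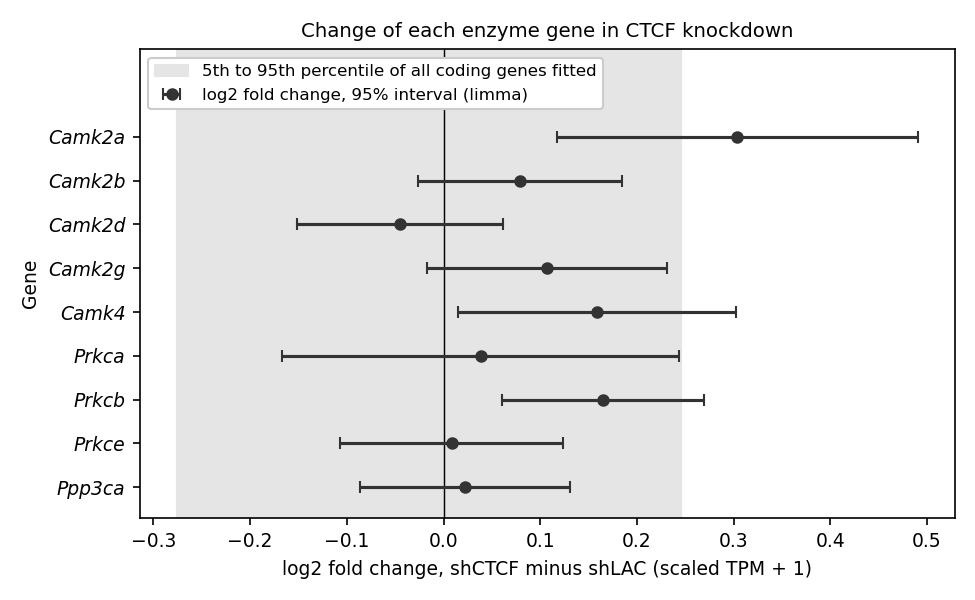
Log2 fold change of each gene, shCTCF minus shLAC, on the scale of log2(scaled TPM + 1), with its 95% interval from limma; the grey band spans the 5th to 95th percentile of the 11139 coding genes fitted, -0.28 to 0.25. Camk2a lies at 0.30, beyond the band, and the other 8 points lie inside it; Camk2d is negative here and positive as deposited.

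All 9 genes were well expressed. Their mean scaled TPM ranged from 16.8 for Camk2g to 156.9 for Ppp3ca, at the 77.0th to 98.7th percentile of the coding genes fitted. The order of the levels was Ppp3ca, Camk2b, Camk2a, Prkcb, Camk2d, Prkce, Camk4, Prkca and Camk2g. Camk2a and Prkcb did not differ beyond the spread, since Camk2a was the higher of the pair in both shCTCF libraries and in 1 of 2 shLAC libraries. Prkca and Camk2g also overlapped, with Prkca higher in 2 of 4 libraries. Each of the other 6 neighbouring pairs kept its order in all 4 libraries with no overlap of scaled values. Annotated genes that overlap the 9 on either strand reached at most 2.78 TPM in any library where the files listed them.

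Promoter windows from RefSeq (GRCm38.p6, 300 bases around the start, mostly before it) were given for 4 of the 9 genes, Camk2b, Camk2d, Prkca and Prkcb. The start is RefSeq's, not the outermost GENCODE end of the gene spans given above: the windows of Camk2b, Camk2d and Prkcb lie wholly inside those spans, and that of Prkca crosses the 5′ end of its span. Since CTCF was the protein knocked down, they were searched on both strands for CCNNNAGNNGGC, letters of the core CTCF motif, which 8.61% of all 32851 promoter windows hold, and 0 of the 4 held it. None held the cAMP response element TGACGTCA, to which CREB binds and which 1.79% of all windows hold. The GC box GGGCGG was in all 4, where 35.7% of all windows hold it. These letters are a description of the windows and show no binding. GC content was 65.3% to 77.3%, at the 82.3th to 97.8th percentile of all windows. The windows of Camk2b, the most abundant CaMKII gene, and Prkcb, the PKC gene with the largest difference, are printed 5′ to 3′ on the gene's strand, with GC boxes in capitals. Camk2b (chr11:6065699-6065998, - strand) has 3 GC boxes, of which 2 share a base, and Prkcb (chr7:122288875-122289174, + strand) has 1.
Camk2b: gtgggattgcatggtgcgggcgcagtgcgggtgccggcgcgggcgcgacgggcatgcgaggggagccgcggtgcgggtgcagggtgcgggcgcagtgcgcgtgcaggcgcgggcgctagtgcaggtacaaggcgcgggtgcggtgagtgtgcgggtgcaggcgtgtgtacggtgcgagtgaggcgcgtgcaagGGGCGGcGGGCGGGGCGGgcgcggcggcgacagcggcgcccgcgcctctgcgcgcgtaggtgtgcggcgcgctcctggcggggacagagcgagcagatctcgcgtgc
Prkcb: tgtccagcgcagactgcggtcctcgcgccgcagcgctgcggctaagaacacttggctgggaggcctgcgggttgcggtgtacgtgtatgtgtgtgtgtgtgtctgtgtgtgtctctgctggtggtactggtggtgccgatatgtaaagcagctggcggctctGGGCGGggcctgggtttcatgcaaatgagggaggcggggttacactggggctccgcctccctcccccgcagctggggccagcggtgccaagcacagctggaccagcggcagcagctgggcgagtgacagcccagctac

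Around these enzymes, 121 other genes in 9 lists of partners, relatives and opponents were read from the same fit. Of these, 114 passed the filter, 3 rose, 4 fell and 107 did not pass, so 7 of 114 companions passed, beside 6.51% of all genes fitted. At an unadjusted p below 0.05, 39 of 114 were past the threshold, beside 23.9% of all genes fitted. The lists were chosen with earlier results of these data known, and their counts and medians are given as descriptions beside the median of 0.00 for all genes fitted. Their calls depended on the processing, as did those of all genes. As deposited 0 passed, beside 1.4% of all genes fitted. With all biotypes fitted after scaling 1 passed, Add2, beside 1.05% of all genes fitted. With 1 library left out, the number of companions called varied too, as did the number of all genes called.

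Of 14 CaMK relatives, calmodulin genes and calmodulin-binding genes, 1 rose, 0 fell and 13 did not pass, with a median change of 0.06. The one that rose was Camk2n1, which encodes a peptide inhibitor of CaMKII. It was at 56.1 and 51.2 scaled TPM in shCTCF, against 43.3 and 39.1 in shLAC, higher by 0.37 on the log2 scale (SE 0.0686, limma adjusted p = 0.0283). The groups did not overlap. Without shCTCF replicate 1 the value was 0.31 and the call was lost (limma adjusted p = 0.0936). The ratio of Camk2a to its inhibitor's transcript was 1.83 and 1.92 in shCTCF and 1.73 and 2.26 in shLAC, so that the groups overlapped.

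Of 12 other PKC and protein kinase D genes, 9 passed the filter and 0 passed the test, with a median change of 0.07. Prkcz, whose gene also gives rise to the brain form PKM zeta, averaged 32.7 ± 1.15 scaled TPM in shCTCF and 31.1 ± 0.667 in shLAC (SD, n = 2, limma adjusted p = 0.451). Prkcd, Prkch and Prkd2 stayed below 1 TPM in all 4 libraries. Of 14 genes that supply or remove diacylglycerol, the lipid that activates PKC, 12 passed the filter and 0 the test, with a median of 0.11. Dgkz, a diacylglycerol kinase that ends the signal, averaged 35.6 ± 1.58 scaled TPM in shCTCF and 28.8 ± 2.84 in shLAC (SD, n = 2, limma adjusted p = 0.0621). Its log2 fold change was 0.40 without shLAC replicate 1 and 0.20 without shLAC replicate 2. Dgkg, another kinase of this family, averaged 22.9 ± 0.417 in shCTCF and 20.7 ± 1.53 in shLAC (SD, n = 2, limma adjusted p = 0.230).

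Of 10 PKC substrates and anchors, 0 rose, 2 fell and 8 did not pass, with a median of -0.03. Add2, which encodes beta-adducin, a PKC substrate that caps actin and links it to spectrin, was at 28.05 and 29.46 scaled TPM in shCTCF, against 40.8 and 41.6 in shLAC. Its log2 fold change of -0.50 was the largest of the called companions and passed without each of the 4 libraries in turn (SE 0.0494, limma adjusted p = 0.00432); as deposited it was -0.31 and did not pass (limma adjusted p = 0.652). Akap5, the scaffold that holds calcineurin, PKC and protein kinase A at the postsynaptic membrane, was at 26.1 and 25.9 scaled TPM in shCTCF, against 32.0 and 32.6 in shLAC. It fell by 0.30 on the log2 scale (SE 0.0463, limma adjusted p = 0.0164). Without shCTCF replicate 1 or shCTCF replicate 2 its call was lost (limma adjusted p = 0.0606 and 0.0893).

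Of 15 calcineurin partners, 13 passed the filter, 1 rose (Ppp3cc), 0 fell and 12 did not pass, with a median of 0.05. Of 14 opposing phosphatases and inhibitors, 0 passed, with a median of 0.01. Ppp1ca, a catalytic subunit of protein phosphatase 1, averaged 74.7 ± 0.588 scaled TPM in shCTCF and 87.1 ± 4.41 in shLAC (SD, n = 2, limma adjusted p = 0.0570). Ppp2r1a, the scaffold subunit of protein phosphatase 2A, averaged 168.0 ± 4.43 in shCTCF and 158.8 ± 3.14 in shLAC (SD, n = 2, limma adjusted p = 0.356).

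Of 14 genes of the cAMP arm, 0 rose, 1 fell and 13 did not pass, with a median of -0.02. Prkacb, a catalytic subunit of protein kinase A, fell, at 86.0 and 83.9 scaled TPM in shCTCF, against 99.6 and 98.8 in shLAC (log2 fold change -0.22, SE 0.0449, limma adjusted p = 0.0382). Without shCTCF replicate 1 or shCTCF replicate 2 its call was lost (limma adjusted p = 0.115 and 0.207), and as deposited the log2 fold change was -0.02. Of 14 nuclear targets of CaMKIV and its co-activators, 0 passed, with a median of 0.04. Mef2c, a transcription factor, averaged 99.4 ± 0.202 scaled TPM in shCTCF and 105.1 ± 8.47 in shLAC (SD, n = 2, limma adjusted p = 0.487), with a sign that turned as deposited. Its relative Mef2d was at 21.3 and 23.0 scaled TPM in shCTCF and 17.6 and 19.6 in shLAC (limma adjusted p = 0.0868). Crem, a CREB relative with activity-induced repressor forms, had the lowest log2 fold change of the 114, -0.67, and was singled out after its values were seen. It was at 7.43 and 4.57 scaled TPM in shCTCF, against 10.7 and 9.14 in shLAC, and did not pass (limma adjusted p = 0.0801).

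Of 14 CaMKII partners and substrates, not all of them at the spine, 1 rose, 1 fell and 12 did not pass, with a median of 0.06. Syn1, a synaptic vesicle protein that CaMKII phosphorylates, was at 27.97 and 28.8 scaled TPM in shCTCF, against 23.3 and 22.5 in shLAC (log2 fold change 0.30, SE 0.0494, limma adjusted p = 0.0203). The gene Araf overlaps Syn1 on the opposite strand at up to 55.2 TPM, and whether the counting used strand is not given in the sources used here. Stmn1, a microtubule-destabilizing protein that CaM kinases phosphorylate, was at 278.0 and 277.7 scaled TPM in shCTCF, against 317.6 and 340.3 in shLAC (log2 fold change -0.24, SE 0.0534, limma adjusted p = 0.0468). Both calls were lost without shCTCF replicate 1 or shCTCF replicate 2 (limma adjusted p = 0.0595 and 0.110 for Syn1, and 0.169 and 0.215 for Stmn1).

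**Figure D4:**
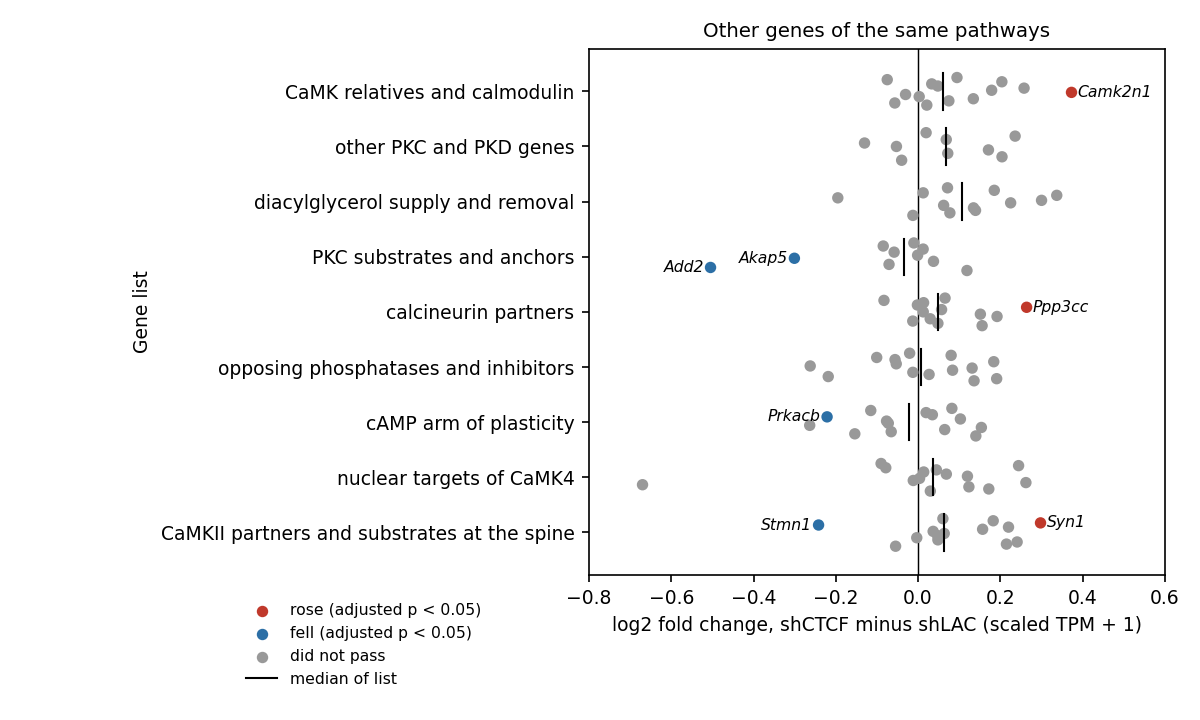
Log2 fold change, shCTCF minus shLAC, of the 114 companion genes fitted, 1 row per list, with genes that rose in red, genes that fell in blue, genes that did not pass in grey and the list median as a black bar. The list medians lie between -0.03 and 0.11, and Add2 at -0.50 and Camk2n1 at 0.37 are the called genes farthest from 0. The row named for the spine includes genes not confined to it, Syn1 and Stmn1.

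Markers of the cell types in the culture were read from the same fit, since in bulk RNA more cells of a type and more RNA per cell cannot be told apart. Of all genes fitted, 6.51% passed in either direction and 49.9% had a positive change. Of 10 excitatory neuron markers, 9 passed the filter, 0 passed the test and 5 had a positive change. Their summed level was 168.6 and 164.0 scaled TPM in shCTCF, against 156.0 and 151.3 in shLAC. Much of that sum was Slc17a7, the vesicular glutamate transporter of these cells. It was at 88.1 and 83.1 in shCTCF and 75.3 and 67.8 in shLAC, so the sum does not show a rise of the markers as a class. The ratio of Camk2a to Slc17a7 was 1.17 and 1.19 in shCTCF and 0.996 and 1.30 in shLAC, and the groups overlapped. Of 10 pan-neuronal markers, Rbfox3 rose and Elavl4 fell (limma adjusted p = 0.0420 and 0.0119), and 8 had a positive change. The sums of 1238 and 1219 in shCTCF and 1173 and 1221 in shLAC overlapped. So did the ratio of Camk2a to Rbfox3, at 3.75 and 3.83 in shCTCF and 3.42 and 3.94 in shLAC. Of 10 inhibitory neuron markers, Slc32a1 rose and Calb2 fell (limma adjusted p = 0.0417 and 0.0457), with sums of 257.4 and 260.6 in shCTCF and 257.6 and 249.0 in shLAC. A positive change was seen in 7 of the 9 inhibitory markers fitted. The calls of Rbfox3, Slc32a1 and Calb2 thus lay close to the threshold. Of 10 astrocyte markers, 2 fell, Aqp4 and Slc1a3 (limma adjusted p = 0.0120 and 0.0170), and 9 had a negative change. Their sums were 112.3 and 89.4 in shCTCF and 139.0 and 116.7 in shLAC. Of 9 oligodendrocyte lineage markers and 10 markers of proliferating cells and progenitors, 0 passed, with sums of 76.2 to 84.0 and 114.7 to 115.6 in shCTCF and of 69.5 to 82.3 and 108.9 to 109.7 in shLAC. Vim, the largest part of the second sum, was at 49.8 and 49.4 in shCTCF and 45.4 and 42.7 in shLAC. Of the 9 proliferation and progenitor markers fitted, 8 had a positive change, as had all 7 oligodendrocyte lineage markers fitted. Of 8 microglial markers 7 stayed below 1 TPM in all 4 libraries, with sums of 2.27 to 2.45 in shCTCF and 2.46 to 3.04 in shLAC. Likewise 7 of 8 endothelial and fibroblast markers stayed below 1 TPM, and Cldn5 was listed at 0 in all 4 libraries. Dcn, the only gene of this list that was fitted, fell (limma adjusted p = 0.0182). It was at 1.91 and 1.69 scaled TPM in shCTCF and 3.03 and 2.80 in shLAC. The sums of this list were 2.09 to 2.39 in shCTCF and 3.54 to 3.55 in shLAC. They were mostly Dcn and do not show a fall of these markers as a class. The part of these differences in the values of the 9 enzymes was not tested.

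The coding genes with a mean of at least 5 scaled TPM whose centred log2 values over the 4 libraries lay nearest to those of Camk2a were Paqr3, Pik3r3 and Dhcr7, at Euclidean distances of 0.0159, 0.0355 and 0.0572 log2 units. Paqr3, for example, was at 8.10 and 7.70 scaled TPM in shCTCF, against 5.74 and 6.83 in shLAC. Within 0.2 log2 units, a limit wider than these distances, lay 333 of 6859 genes. Over only 4 libraries, such likeness is no more than a description. Camk2a and Prkcb, the enzyme genes with the lowest adjusted p, were also set side by side under the other settings tried.

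**Figure D5:**
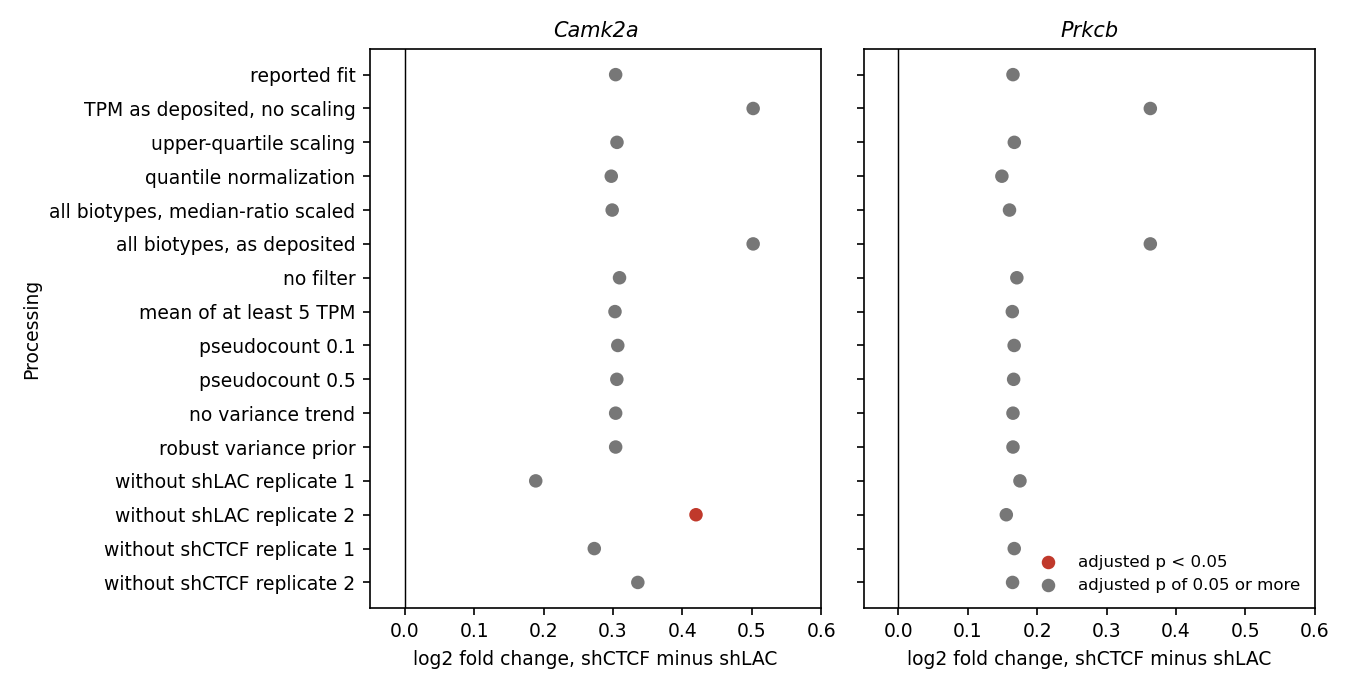
Log2 fold change, shCTCF minus shLAC, of Camk2a (left) and Prkcb (right) in the reported fit and under each alternative other than the replicate block, in red where the limma adjusted p is below 0.05. Camk2a ranges from 0.19 without shLAC replicate 1 to 0.50 as deposited and passes once, without shLAC replicate 2; Prkcb ranges from 0.15 to 0.36 and passes under none of those drawn.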

How the data were processed

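RNA from the cultures was extracted with TRIzol and sequenced as 101 bp read pairs from fragments of about 300 bp, per the labels' protocols. The authors deposited TPM per Ensembl gene for each library. The submitters' processing notes name RSEM 1.2.28, CASAVA and mm10; annotation release and strandedness: not given in the sources used here. The files held no counts, so limma was the test. GENCODE vM21 (GRCm38, equal to mm10) matched 37060 of 37437 identifiers. Fitted genes (11139) were protein-coding, had at least 300 exonic nt and reached 1 TPM in at least 2 libraries; predicted loci named Gm and a number were left out. Median-ratio scaled TPM was tested as log2(scaled TPM + 1), which understates changes of low genes, with limma 3.58.1 (R 4.3.3), a trended prior of 4.79 degrees of freedom and Benjamini-Hochberg adjustment at 0.05. The fit was tested on simulated data, where false calls made up more than the nominal share of calls at each fold change simulated, so single calls near the threshold are less certain than their adjusted p.

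The enzymes, companion lists and markers were chosen with earlier results of these data known. From each list the text names up to 4 called genes, or, for a list with no called gene, its 2 most abundant, and for Camk2a the 3 genes of nearest pattern. A gene picked by this rule is not reported here. Alternatives changed the scaling, gene set, filter, pseudocount or prior, added a block for the replicate number, or left out a library, in which case the group's lone library is assumed to vary as the others do.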

Additional observations from a re-analysis of the deposited data

How the results depend on the processing

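Of the 9 enzymes, 0 passed under 14 of the 16 alternatives; Camk2a alone passed under the other two, and 0 fell under any. Beside 315 higher and 410 lower coding genes in the reported fit, 106 and 50 passed as deposited, 47 and 87 with all biotypes fitted after scaling, 246 and 116 with all biotypes as deposited, 86 and 159 with no filter, and 195 and 240 where only genes averaging 5 TPM or more were fitted. Companion genes called higher (3) became 0 as deposited, with all biotypes by either scaling and with no filter. Those called lower (4) became 0 as deposited by either gene set, 1 with all biotypes after scaling, 2 with no filter and 2 with no variance trend. The causes were not tested; as deposited, the prior had infinite degrees of freedom, so each variance was that of the trend.

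With 1 library left out, coding genes called ranged from 77 to 525 higher and from 144 to 623 lower, companions from 0 to 8 higher and from 1 to 8 lower, and enzymes from 0 to 1 higher (Camk2a without shLAC replicate 2) with 0 lower. The lowest coding and lower-companion counts were without shCTCF replicate 2. The difference in Camk2a share ranged from 2.12 to 5.57 percentage points, and against Camk2b alone it was 3.82. Signs that turned were those of values that did not pass: Camk2d (0.15 as deposited), Mef2c (0.12 as deposited, and -0.16 to 0.00267 with 1 library left out), Prkca (-0.067 to 0.14) and Prkce (-0.023 to 0.041) with 1 library left out.

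The replicate numbers are shared by both groups, but no label says that they pair cultures. Deviations of same-numbered libraries correlated at r = 0.25 across 11139 genes, which are not independent. With the replicate number as a block, 641 genes were higher and 765 lower, 14 and 9 companions, and 1 enzyme, Camk2a (limma adjusted p = 0.0343), and 0 enzymes lower.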
